A study of Mus musculus with 9 samples.

Results

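Krüppel-like factors (KLFs) are transcription factors whose C-terminal C2H2 zinc fingers bind CACCC boxes and GC boxes in DNA. They differ outside the fingers: one group, here KLF2, KLF4, KLF6 and KLF7, recruits acetyltransferases and is known mostly for activation, KLF3 recruits the corepressor CtBP, and KLF9, KLF10, KLF11, KLF13 and KLF16 recruit the SIN3 corepressor. In macrophages KLF2 is known to restrain inflammatory activation, KLF4 to take part in monocyte differentiation and in the response to interleukin 4, and KLF6 to promote inflammatory gene expression, while KLF10 is known in mouse liver cells as a gene that responds to glucose. The 10 genes Klf2, Klf3, Klf4, Klf6, Klf7, Klf9, Klf10, Klf11, Klf13 and Klf16 were taken by symbol from a gene count table of 20627 features. Each had 1 entry there, and all 10 passed the filter on low counts.

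The 9 libraries held polyadenylated RNA of RAW264.7, a mouse cell line with macrophage features. The groups were HG-SIG, cells kept for 6 h in 35 mmol/l glucose with sitagliptin phosphate, HG, cells kept for 6 h in 35 mmol/l glucose alone, and NC, for which the labels give neither a glucose concentration nor a time and which served as the control (3 libraries each). Sitagliptin is an inhibitor of dipeptidyl peptidase 4 given in type 2 diabetes, and the series title places the work in macrophage polarization in diabetes. No group held an osmotic control or sitagliptin without high glucose, the sitagliptin dose is not in the labels, and the labels do not say whether the replicates were separate cultures, so p-values measure the spread between these libraries, which may be technical.

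Library totals ranged from 23285821 to 31571578 counts, and each KLF had at least 82 counts in every library, the lowest being Klf11 with 82 to 159 and Klf2 with 115 to 266. The first principal component of log2 CPM (counts scaled to a common total) held 53.4% of the variance and separated the 3 groups, and on the third, which held 7.37%, HG replicate 3 lay far from its group. The 7 macrophage markers checked (Adgre1, Csf1r, Cd68, Lyz2, Itgam, Spi1 and Ptprc) were all detected, with summed levels of 4940 to 5030 CPM in HG-SIG, 9290 to 9970 CPM in HG and 9510 to 9990 CPM in NC. Of the epithelial, lymphocyte and fibroblast markers with an entry in the table, no gene had more than 5 counts in any library.

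The promoters of the 5 KLFs with the largest single fold changes are given here because KLF proteins bind CACCC and GC boxes, which also lie before many KLF genes. Of the 10 genes, 8 had an entry in the RefSeq promoter table (GRCm38.p6), and Klf10 and Klf16 are named only. Each entry holds 250 bases before and 50 bases from a start set in that table. For some genes this start differs from the GENCODE gene bounds given further below. The whole Klf7 window lies inside the GENCODE bounds of Klf7 (chr1:64029447-64122282, minus strand). The windows are Klf4 at chr4:55532426-55532725 on the minus strand, Klf6 at chr13:5861239-5861538 on the plus strand, Klf7 at chr1:64121340-64121639 on the minus strand, Klf2 at chr8:72318812-72319111 on the plus strand and Klf11 at chr12:24651121-24651420 on the plus strand. Each is written 5′ to 3′ on the gene's strand, and capitals mark every GC box (GGGCGG or its complement CCGCCC) and every CACCC box (CCACCC or its complement GGGTGG), some of which overlap.
Klf4: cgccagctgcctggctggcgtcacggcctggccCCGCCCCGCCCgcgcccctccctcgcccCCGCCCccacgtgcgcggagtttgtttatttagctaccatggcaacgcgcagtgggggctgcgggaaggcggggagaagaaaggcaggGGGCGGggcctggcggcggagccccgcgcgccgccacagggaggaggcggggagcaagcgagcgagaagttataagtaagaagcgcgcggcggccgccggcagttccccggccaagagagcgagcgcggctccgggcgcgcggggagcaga
Klf6: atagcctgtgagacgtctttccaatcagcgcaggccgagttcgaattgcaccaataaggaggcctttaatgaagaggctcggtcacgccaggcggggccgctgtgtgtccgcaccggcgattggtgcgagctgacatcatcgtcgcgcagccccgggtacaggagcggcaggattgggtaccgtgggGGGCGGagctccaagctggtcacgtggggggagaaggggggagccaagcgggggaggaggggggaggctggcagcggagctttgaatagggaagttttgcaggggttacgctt
Klf7: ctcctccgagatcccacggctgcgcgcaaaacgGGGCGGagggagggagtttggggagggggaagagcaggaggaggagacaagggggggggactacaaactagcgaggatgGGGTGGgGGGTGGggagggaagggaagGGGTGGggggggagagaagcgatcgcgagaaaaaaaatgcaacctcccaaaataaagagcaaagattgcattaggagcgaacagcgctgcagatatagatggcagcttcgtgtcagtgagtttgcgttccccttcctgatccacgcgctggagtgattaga
Klf2: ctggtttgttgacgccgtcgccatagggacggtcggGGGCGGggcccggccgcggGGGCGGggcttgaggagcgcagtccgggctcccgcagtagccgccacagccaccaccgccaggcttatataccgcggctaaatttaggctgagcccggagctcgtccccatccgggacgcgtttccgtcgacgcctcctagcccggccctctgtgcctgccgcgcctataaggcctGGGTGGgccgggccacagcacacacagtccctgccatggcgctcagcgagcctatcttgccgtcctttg
Klf11: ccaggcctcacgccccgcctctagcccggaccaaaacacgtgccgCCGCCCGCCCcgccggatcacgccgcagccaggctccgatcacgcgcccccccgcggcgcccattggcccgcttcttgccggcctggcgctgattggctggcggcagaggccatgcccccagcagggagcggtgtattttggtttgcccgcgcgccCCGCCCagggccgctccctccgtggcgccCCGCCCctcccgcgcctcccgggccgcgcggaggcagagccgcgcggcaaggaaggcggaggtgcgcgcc

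The Klf4 and Klf11 windows each held 4 GC boxes and no CACCC box, and in each of them 2 of the GC boxes shared bases. Klf7 held 1 GC box and 3 CACCC boxes, Klf2 2 GC boxes and 1 CACCC box, and Klf6 1 GC box. Among the windows not printed, Klf3 held 6 GC boxes and 3 CACCC boxes, Klf13 3 and 1, and Klf9 none of either. Over all 32851 promoters of the table, 35.7% held a GC box and 31.5% a CACCC box, and the KLF windows were richer in G and C than most, at 58.3% to 77.7% against a median of 52.7%. An E-box CACGTG, the core of the sites bound by MYC, USF and the glucose-responsive factor ChREBP, occurred once each in Klf4, Klf6 and Klf11 and in 7.15% of all promoters. A match to the MEF2 consensus, searched on both strands, was found in Klf2, as CTAAATTTAG at 118 to 109 bases before the start, and in 3.19% of all promoters. Klf9 held 1 AP-1 match (TGANTCA), which 7.81% of promoters held. No member window held TGACGTCA, TATAAA or a CArG box, which 1.79%, 13.6% and 1.63% of promoters held. These are matches of letters in short windows, and binding was not measured.

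Within each group the KLF transcripts spanned a wide range on the length-scaled scale (TPM). TPM was computed from exon lengths and used here mainly to order genes inside a group. In HG-SIG, Klf10 led at 43.7 ± 2.65 TPM (SD, n = 3 here and below), its libraries overlapping those of Klf16 at 39.7 ± 1.55 TPM, and Klf6 followed at 35.5 ± 1.93 TPM. In HG the order was Klf10 at 59.4 ± 2.83, Klf6 at 47.8 ± 2.45 and Klf16 at 42.7 ± 0.736 TPM, with no overlap between neighbours. In NC, Klf6 at 62.6 ± 4.24 TPM and Klf10 at 58.0 ± 4.14 TPM overlapped and stood above Klf16 at 37.7 ± 0.936 TPM. Klf4 took the seventh place of 10 at 8.71 ± 0.763 TPM in HG-SIG and at 11.9 ± 2.10 TPM in HG. In both of these groups its libraries overlapped those of Klf7. In NC, Klf4 took the fourth place at 19.8 ± 2.73 TPM, and its libraries overlapped those of Klf9. Klf3 was last in all 3 groups at 2.29 ± 0.134, 1.53 ± 0.130 and 1.42 ± 0.192 TPM in HG-SIG, HG and NC, just under Klf11 at 3.30 ± 0.403, 4.30 ± 0.225 and 2.54 ± 0.124 TPM. The order of genes close in level depends on the length used. With the longest transcript in place of all exons, Klf3 stood above Klf11 in HG-SIG and NC, and Klf13 above Klf9 in HG-SIG. In NC, Klf10 then stood above Klf6, Klf9 above Klf4 and Klf13 above Klf7.

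**Figure D1:**
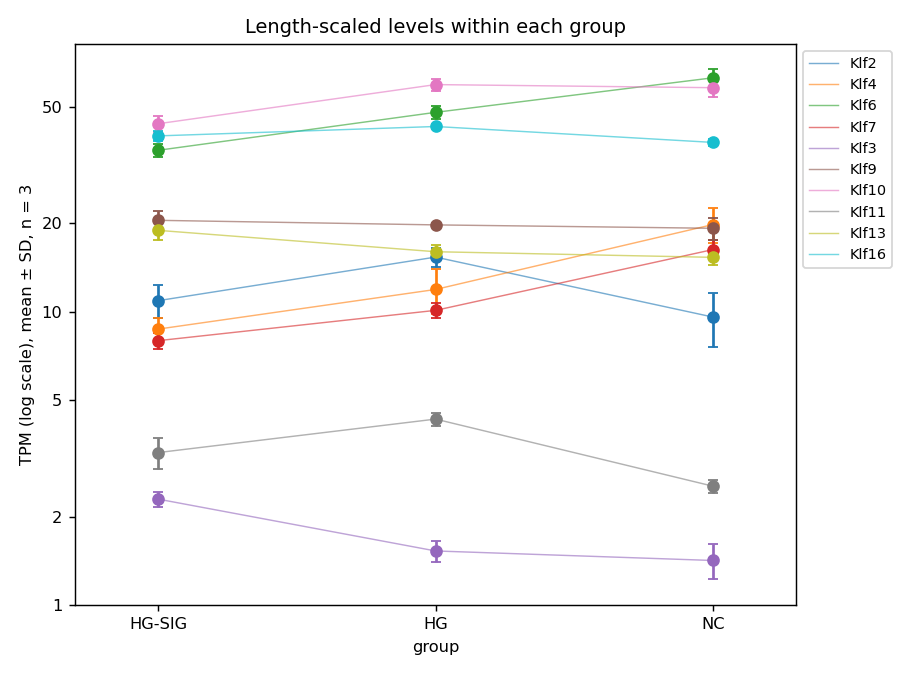
Length-scaled levels of the 10 KLF transcripts (TPM, log axis, mean ± SD of 3 libraries) in HG-SIG, HG and NC, for reading the order of genes within a group. Klf10, Klf16 and Klf6 are the 3 highest in every group, Klf11 and Klf3 the 2 lowest, and Klf4 lies near Klf7 in HG-SIG and HG but near Klf9 in NC.

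For changes between groups, levels are CPM scaled with TMM, and tests are edgeR's quasi-likelihood F-test over 13311 genes with Benjamini-Hochberg adjustment, called at an adjusted p under 0.05. The KLFs fell into distinct patterns. Klf4, Klf6 and Klf7 were lower in HG than in NC and lower again in HG-SIG than in HG. Klf2, Klf11 and Klf16 were higher in HG than in NC and lower in HG-SIG than in HG. Klf10 was lower, and Klf3 higher, in HG-SIG than in both other groups, and Klf9 and Klf13 passed no test. In bulk RNA, fewer cells with a transcript and less of it per cell cannot be told apart. The fold changes of HG-SIG over HG and of HG over NC share the HG libraries and are therefore not independent.

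**Figure D2:**
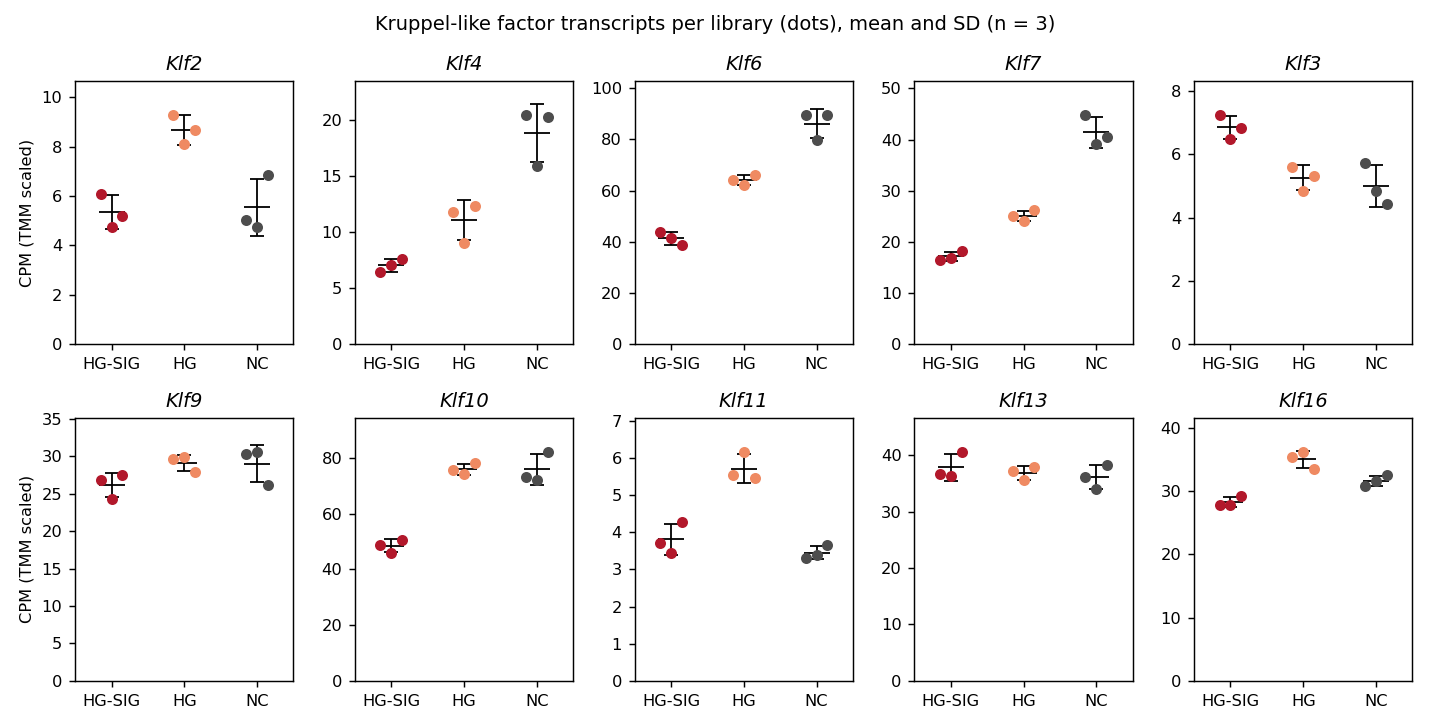
TMM-scaled CPM of each KLF transcript in HG-SIG, HG and NC, with 1 dot per library and bars for the mean and SD (n = 3), each panel starting at 0. The 3 groups form separate steps for Klf4, Klf6 and Klf7, HG is highest for Klf2, Klf11 and Klf16, and HG-SIG stands below the other groups for Klf10 and above them for Klf3.

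Klf4 (chr4:55527143-55532466, minus strand) had 6.47, 7.10 and 7.61 CPM in the HG-SIG libraries, 11.8, 9.06 and 12.4 CPM in the HG libraries, and 20.5, 15.9 and 20.3 CPM in the NC libraries. The 3 groups did not overlap. It fell by 0.65 ± 0.13 on the log2 scale (SE) in HG-SIG against HG (adjusted p = 0.00116) and by 0.78 ± 0.12 in HG against NC (adjusted p = 0.000321). Relative to NC, the HG-SIG level was 0.373 times as high (log2 fold change -1.42 ± 0.12, adjusted p = 6.45e-07).

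Klf6 (chr13:5861482-5870394, plus strand), an early-response gene named for its core promoter element binding, had 43.8, 41.5 and 38.8 CPM in HG-SIG, 64.2, 62.3 and 66.1 CPM in HG, and 89.4, 79.6 and 89.4 CPM in NC. Every HG-SIG library lay under every HG library, and every HG library under every NC library. Its log2 fold changes were -0.63 ± 0.06 in HG-SIG against HG (adjusted p = 1.54e-06), -0.43 ± 0.05 in HG against NC (adjusted p = 7e-05) and -1.06 ± 0.06 in HG-SIG against NC (adjusted p = 4.9e-09). Of this trio Klf6 had the highest CPM.

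Klf7 (chr1:64029447-64122282, minus strand), known in mice for its part in axon growth, had 16.5, 16.8 and 18.2 CPM in HG-SIG, 25.0, 24.2 and 26.2 CPM in HG, and 44.7, 39.1 and 40.4 CPM in NC. The groups were again in separate steps. It fell by 0.55 ± 0.07 in HG-SIG against HG (adjusted p = 2.05e-05) and by 0.72 ± 0.06 in HG against NC (adjusted p = 1.91e-06). In HG-SIG against NC it was 0.415 times as high (log2 fold change -1.27 ± 0.06, adjusted p = 2.67e-09).

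Klf2 (chr8:72319033-72321656, plus strand), the remaining member of the activating group, did not follow these steps. It had 6.09, 4.75 and 5.19 CPM in HG-SIG, 9.26, 8.08 and 8.67 CPM in HG, and 5.01, 4.75 and 6.86 CPM in NC. HG stood above both other groups, which overlapped each other. Klf2 fell by 0.70 ± 0.13 in HG-SIG against HG (adjusted p = 0.000809) and rose by 0.64 ± 0.14 in HG against NC (adjusted p = 0.00322). HG-SIG and NC differed by -0.06 ± 0.14 on the log2 scale, with a 95% interval of -0.36 to 0.24 (adjusted p = 0.739), which leaves room for a difference of either sign; the value was 0.13 without NC replicate 3 and 0.02 without HG-SIG replicate 2.

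Klf3 (chr5:64803388-64832901, plus strand), the CtBP-recruiting repressor, was the only member called higher in HG-SIG with TMM scaling. Its levels were 7.23, 6.49 and 6.83 CPM in HG-SIG, 5.61, 4.83 and 5.32 CPM in HG, and 5.71, 4.83 and 4.42 CPM in NC. HG-SIG lay above both other groups, which overlapped. Klf3 rose by 0.38 ± 0.11 relative to HG (adjusted p = 0.00947) and by 0.46 ± 0.11 relative to NC (adjusted p = 0.00259), while HG against NC gave 0.07 ± 0.11 with a 95% interval of -0.17 to 0.32 (adjusted p = 0.667). An antisense gene, Gm20033, overlaps 3.59% of the exonic length of Klf3, and whether counting used the strand was not given in the sources used here.

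Klf8, another CtBP-recruiting family gene outside the 10, had 12.6, 12.01 and 13.00 CPM in HG-SIG, 10.1, 10.4 and 9.46 CPM in HG, and 11.7, 11.2 and 11.9 CPM in NC. Like Klf3 it was higher in HG-SIG than in HG, by 0.33 ± 0.07 (adjusted p = 0.00129). Its lower level in HG against NC, -0.22 ± 0.07 (adjusted p = 0.0298), was no longer called without HG replicate 1 (adjusted p = 0.0647), without HG replicate 3 (0.0805), without NC replicate 1 (0.0804) or without NC replicate 3 (0.0951), with library-size scaling (0.0531), with DESeq2 (0.102) or with no filter beyond 1 count (0.0664). Klf12, the last gene of this subgroup, had 1 to 4 counts per library, and Klf1 and Klf17 had 0 to 4, so none of these was tested. Klf5, Klf14 and Klf15 had no entry under these symbols in the gene count table.

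Klf10 (chr15:38291463-38300706, minus strand), known as an early gene induced by transforming growth factor β (TGF-β), had the highest or second highest TPM of the family in each group. It had 48.9, 45.9 and 50.7 CPM in HG-SIG, 75.6, 74.3 and 78.1 CPM in HG, and 73.3, 72.2 and 82.1 CPM in NC. HG-SIG lay under both other groups, and HG fell inside the range of NC. Klf10 fell by 0.65 ± 0.05 relative to HG (adjusted p = 8.54e-07) and by 0.65 ± 0.05 relative to NC (adjusted p = 4.91e-07). HG against NC gave 0.00 ± 0.05 with a 95% interval of -0.11 to 0.12 (adjusted p = 0.991).

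Klf11 (chr12:24651274-24662789, plus strand), its closest relative and also a TGF-β-inducible gene, behaved otherwise. It had 3.72, 3.44 and 4.27 CPM in HG-SIG, 5.54, 6.16 and 5.45 CPM in HG, and 3.32, 3.39 and 3.65 CPM in NC. HG lay above both other groups, which overlapped. Klf11 fell by 0.58 ± 0.11 in HG-SIG against HG (adjusted p = 0.000681) and rose by 0.73 ± 0.11 in HG against NC (adjusted p = 0.000335), the pattern also seen in Klf2. HG-SIG against NC gave 0.14 ± 0.12 with a 95% interval of -0.11 to 0.39 (adjusted p = 0.308). Of the 19 alternatives, 2 made this a call. Scaling by library size alone gave 0.33 (adjusted p = 0.0214), and limma on log2(TPM + 1) also called it higher (adjusted p = 0.00467).

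Klf16 (chr10:80567124-80577321, minus strand), which binds GC-rich elements, moved the same way over a smaller range. It had 27.7, 27.8 and 29.1 CPM in HG-SIG, 35.4, 36.1 and 33.5 CPM in HG, and 30.8, 31.5 and 32.5 CPM in NC, and no 2 groups overlapped. Klf16 fell by 0.31 ± 0.05 in HG-SIG against HG (adjusted p = 0.000132). Its call in HG against NC, 0.15 ± 0.05 (adjusted p = 0.0305), was lost without HG replicate 1 (adjusted p = 0.0829), HG replicate 2 (0.111), NC replicate 1 (0.109) or NC replicate 2 (0.0674), and also with DESeq2 (0.0906), with no filter beyond 1 count (0.0507) or with the 6 libraries alone (0.058). Its call in HG-SIG against NC, -0.16 ± 0.05 (adjusted p = 0.00979), turned to 0.03 with library-size scaling and to 0.07 on log2(TPM + 1).

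Klf9 (chr19:23141226-23168134, plus strand), a glucocorticoid-induced gene, and Klf13 (chr7:63886351-63938915, minus strand), known in T cells as an activator of Ccl5, passed no test. Klf9 had 26.8, 24.3 and 27.4 CPM in HG-SIG, 29.6, 29.9 and 27.9 CPM in HG, and 30.2, 30.6 and 26.2 CPM in NC. Every HG-SIG library lay under every HG library, by 0.15 ± 0.07 on the log2 scale (adjusted p = 0.0729), and NC overlapped both. Without NC replicate 3, the lowest NC library, Klf9 was called lower in HG-SIG against HG (-0.16, adjusted p = 0.0386) and in HG-SIG against NC (-0.22, adjusted p = 0.0129), while with library-size scaling the differences were 0.0066 and 0.05. Klf13 had 36.7, 36.3 and 40.5 CPM in HG-SIG, 37.2, 35.5 and 37.9 CPM in HG, and 36.1, 33.9 and 38.2 CPM in NC, so all 3 groups overlapped. Its 95% intervals ran from -0.08 to 0.16 in HG-SIG against HG and from -0.10 to 0.15 in HG against NC.

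**Figure D3:**
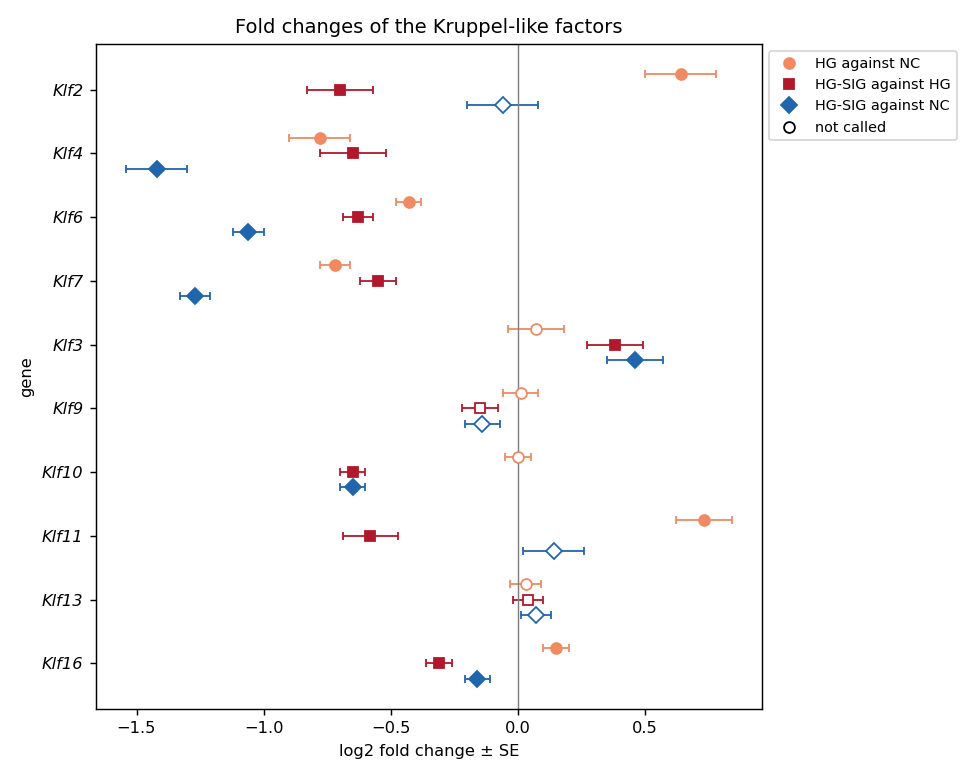
Log2 fold changes (± SE) of the 10 KLF transcripts for each pair of groups, filled where called. Klf4, Klf6 and Klf7 lie left of 0 in all 3 comparisons, and Klf2 and Klf11 lie right of 0 in HG against NC and left of 0 in HG-SIG against HG.

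In HG-SIG against HG, 8 of the 10 KLFs were called, 7 lower and 1 higher, where 52.5% of all genes tested were called (26.8% lower and 25.7% higher). Groups were fully separate for 8 lower and 1 higher KLF, against 58.7% of all genes. The median log2 fold change of the 10 was -0.56 against 0.01 over all genes tested, and their median absolute change was 0.56 against 0.22. The 10 were chosen with earlier results of these data known. Klf8, tested outside the 10, was called higher in this comparison (0.33 ± 0.07, adjusted p = 0.00129). Of the 10, 6 were called in HG against NC, 3 higher and 3 lower, against 29.5% of all genes (14.3% higher and 15.2% lower); the same 6 did not overlap between groups, against 41.7% of all genes. The median over the KLFs was 0.02 against 0.00, and the median absolute change 0.29 against 0.14. In HG-SIG against NC, 6 of 10 were called, 5 lower and 1 higher, beside 58.6% of all genes (28.7% lower and 29.9% higher). The same 6 did not overlap, beside 65.9% of all genes, with medians of -0.15 and 0.02 over the KLFs and all genes. With library size alone or on log2(TPM + 1), 4 KLFs were called lower and 3 higher. Their median was then 0.04 and 0.08, beside 0.21 and 0.23 over all genes. The series' own criterion, an absolute log2 fold change over 1, was met together with the edgeR call by Klf4, Klf6 and Klf7 in HG-SIG against NC, where 8.51% of genes met it. Klf4 met it in all 19 alternatives (-1.53 to -1.09), but with library size alone Klf6 gave -0.87, and on log2(TPM + 1) Klf6 gave -0.80 and Klf7 -0.95. No KLF met it in the HG-SIG to HG comparison, where 5.3% of genes did, or between HG and NC, where 2.85% did, under edgeR or any of the 19 alternatives, although 9 and 6 of the 10 had an unadjusted p under 0.05 in edgeR.

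Adding the 10 transcripts up, the KLF total was 222.4 ± 7.32 CPM in HG-SIG, 297 ± 5.9 CPM in HG and 332.9 ± 15.1 CPM in NC. The length-scaled totals were 191.4 ± 8.03, 228.7 ± 8.46 and 242.4 ± 12.3 TPM in that order. On that scale the HG and NC libraries overlapped. The size of the HG-SIG changes depended on the scaling. TMM factors were 1.08 to 1.09 in HG-SIG, 0.961 to 0.977 in HG and 0.948 to 0.955 in NC, and with library size alone the median of all genes moved to 0.17 for HG-SIG over HG and to 0.21 for HG-SIG over NC. The share of higher calls over all genes then went to 76.9%, against 48.9% with TMM, in HG-SIG against HG, to 76.2% against 51% in HG-SIG against NC, and to 58.9% against 48.4% in HG against NC. All 7 KLFs that fell in HG-SIG against HG were still called lower, by 0.15 (Klf16) to 0.54 (Klf2), and Klf13 became a call at 0.20. On log2(TPM + 1) with limma, the same 7 fell by 0.10 to 0.46, Klf3 rose by 0.38 and Klf13 rose by 0.23, beside a median of 0.19 over all genes. The series states limma on log2 TPM, and the 1 added before the log was set here. It makes the fold changes of genes with low TPM smaller.

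Across the 9 libraries the KLF levels moved in blocks, as a description of 3 groups of 3 that share each treatment. Pearson's r of log2 CPM was 0.98 between Klf4 and Klf7, 0.97 between Klf6 and Klf7 and 0.96 between Klf4 and Klf6. Klf2 and Klf11 had an r of 0.86, and Klf10 and Klf6 one of 0.90. Klf3 ran opposite to Klf10, with an r of -0.88. The genes most like each KLF by r were Zfp513 for Klf4 (0.995), P4hb for Klf6 (0.996), Lilrb4a for Klf7 (0.996), Engase for Klf2 (0.929), Stard8 for Klf3 (0.970), Gtf3c5 for Klf10 (0.992), Suv39h1 for Klf11 (0.980), Alyref for Klf16 (0.980), Lrwd1 for Klf9 (0.945) and Zcchc2 for Klf13 (0.957). Of 11062 genes compared, 577 had an r over 0.95 with Klf6, 486 with Klf7, 337 with Klf10 and 281 with Klf4, but 57 with Klf16, 16 with Klf11, 9 with Klf3, 1 with Klf13 and none with Klf2 or Klf9. Klf11, Klf2 and Klf3 had the lowest counts of the 10, and the part of counting noise in these numbers was not tested.

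The SP genes, whose proteins share the zinc finger type and bind GC boxes, gave another contrast. Sp4 had 21.9, 22.00 and 24.2 CPM in HG-SIG, 9.09, 11.2 and 12.7 CPM in HG, and 8.80, 7.89 and 10.97 CPM in NC. It rose by 1.05 ± 0.12 in HG-SIG against HG (adjusted p = 1.19e-05), a larger absolute change than that of any of the 10 KLFs, and it was called under all 19 alternatives. Sp2 fell by 0.48 ± 0.06 in the same comparison (adjusted p = 5.9e-05), with 12.7 ± 0.717 CPM in HG-SIG and 17.6 ± 0.38 CPM in HG. Sp1 and Sp3, the broadly expressed members, gave -0.04 ± 0.05 (adjusted p = 0.586) and 0.00 ± 0.05 (adjusted p = 0.96), and on log2(TPM + 1) they gave 0.17 and 0.21. Between HG and NC, edgeR and DESeq2 each called 0 of the 4; Sp1 (0.14 ± 0.05, adjusted p = 0.0654) and Sp3 (0.12 ± 0.05, adjusted p = 0.0856) had an unadjusted p under 0.05 in edgeR. Sp1 was called without HG replicate 1 (adjusted p = 0.0133) and Sp3 without NC replicate 3 (adjusted p = 0.0343). Sp6, Sp7, Sp8 and Sp9 had too few counts to test.

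ERK5 is a kinase that activates MEF2 factors, which switch on Klf2 and Klf4 in endothelial cells. Of the 8 ERK5 and MEF2 genes tested, 5 fell and 1 rose in HG-SIG against HG (background 52.5%), and 2 rose and 1 fell in HG against NC (background 29.5%). The calls of Map2k5 (0.16 ± 0.04, adjusted p = 0.0157) and Map3k3 (-0.14 ± 0.04, adjusted p = 0.0144) in HG against NC were lost without NC replicate 3 (adjusted p = 0.0667 and 0.0508), without HG replicate 3 for Map2k5 (0.0571) and without HG replicate 1 for Map3k3 (0.0627). Mef2a fell by 0.60 ± 0.06 in HG-SIG against HG (adjusted p = 2.49e-06), at 187 ± 1.97 CPM in HG-SIG and 282.8 ± 10 CPM in HG. Mef2c fell by 0.50 ± 0.04 (adjusted p = 1.58e-07) and Mef2d by 0.36 ± 0.06 (adjusted p = 0.000148), the last no longer called on log2(TPM + 1). Mapk7, which encodes ERK5, fell by 0.30 ± 0.08 (adjusted p = 0.00608), and Hdac5, a repressor of MEF2 factors, by 0.22 ± 0.04 (adjusted p = 0.000609) with TMM scaling. Both calls depended on it: Mapk7 gave -0.14 (adjusted p = 0.155) with library size alone and -0.09 (0.317) on log2(TPM + 1), and Hdac5 gave -0.06 (0.231) and -0.02 (0.774). Map3k2, a kinase upstream of ERK5, rose by 0.37 ± 0.07 (adjusted p = 0.00109). Relative to NC, Mef2c rose in HG by 0.24 ± 0.03 (adjusted p = 0.000181). It was thus higher in HG than in NC and lower in HG-SIG than in HG, as Klf2 was. Unlike Klf2, Mef2c was also called lower in HG-SIG than in NC (-0.26 ± 0.04, adjusted p = 4.01e-05). Klf4 differed from Mef2c in being lower in HG than in NC. Whether any gene of this list bears on Klf2 or Klf4 was not tested.

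Of the 6 ubiquitin ligases described as acting on KLF proteins, 5 were called higher in HG-SIG against HG, where 52.5% of all genes were called and 25.7% were called higher. With library size alone or on log2(TPM + 1) all 6 were called higher, settings that move the median of all genes upward too. Smurf1 rose by 0.43 ± 0.07 (adjusted p = 0.000213), with 22.96 ± 1.06 CPM in HG-SIG and 17.1 ± 1.14 CPM in HG. Itch rose by 0.35 ± 0.04 (adjusted p = 3.36e-05) and Vhl by 0.29 ± 0.05 (adjusted p = 0.000277), while Wwp1 gave 0.10 ± 0.05 (adjusted p = 0.0987). Of the 6, 2 fell in HG against NC (background 15.2% lower), Vhl by 0.24 ± 0.05 (adjusted p = 0.00216) and Smurf1 by 0.22 ± 0.07 (adjusted p = 0.0333), and Smurf1 lost its call without NC replicate 3 (adjusted p = 0.139), NC replicate 2 (0.0594), HG replicate 1 (0.118) or HG replicate 3 (0.0688). KLF proteins were not measured.

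Of the 12 cofactor genes, 4 rose and 2 fell in HG-SIG against HG (background 52.5%), and 2 rose and 2 fell in HG against NC (background 29.5%), shares near those of all genes. With library size alone or on log2(TPM + 1), 10 rose and 1 fell in HG-SIG against HG. The scaffold genes Sin3a, Sin3b and Ctbp1 passed no test in that comparison with TMM scaling, but were called with library size alone at 0.11, 0.14 and 0.11 (adjusted p = 0.00894, 0.0357 and 0.014). Sap30, a subunit of the SIN3 complex, fell by 0.49 ± 0.05 in HG-SIG against HG (adjusted p = 6.16e-06) and by 0.41 ± 0.05 in HG against NC (adjusted p = 5.04e-05), with 58.1 ± 4.17 CPM in HG-SIG, 81.4 ± 2.64 CPM in HG and 108 ± 3.31 CPM in NC. Those are downward steps in the order seen for Klf4, Klf6 and Klf7. Kat2b, the acetyltransferase PCAF, rose by 0.50 ± 0.04 in HG-SIG against HG (adjusted p = 8.79e-07) and fell by 0.22 ± 0.04 in HG against NC (adjusted p = 0.00205). Its relative Kat2a rose by 0.27 ± 0.04 in HG against NC (adjusted p = 9.59e-05), and Ctbp2 fell by 0.18 ± 0.04 in HG-SIG against HG (adjusted p = 0.00109), a value that was 0.02 on log2(TPM + 1).

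Genes described in the literature as activated by KLF2, KLF4 or KLF6, and genes described as repressed by KLF2, KLF3, KLF6 or KLF10, both held genes that fell. Among the activated ones, 3 of 5 tested fell in HG-SIG against HG and 2 fell in HG against NC, where 26.8% and 15.2% of all genes were called lower. The count of 3 was 1 with library size alone and 2 on log2(TPM + 1). Plau, the urokinase gene, fell by 2.62 ± 0.08 in HG-SIG against HG (adjusted p = 6.93e-11) and by 0.99 ± 0.06 in HG against NC (adjusted p = 1.17e-07), with 9.89 ± 0.559 CPM in HG-SIG, 60.8 ± 6.07 CPM in HG and 120.9 ± 5.41 CPM in NC. Cdkn1a, the cell cycle inhibitor p21, fell by 0.29 ± 0.05 in HG-SIG against HG (adjusted p = 0.000625; 0.0658 with library-size scaling and 0.297 on log2(TPM + 1)) and by 0.65 ± 0.05 in HG against NC (adjusted p = 1.18e-06). S1pr1, the lymphocyte egress receptor and a KLF2 target in T cells, was low, at 0.774 ± 0.226 CPM in HG-SIG and 1.33 ± 0.326 CPM in HG. Its call of -0.78 ± 0.27 (adjusted p = 0.0271) was lost without HG-SIG replicate 2 (adjusted p = 0.107) or HG replicate 1 (0.148), with DESeq2 (0.052) and with library-size scaling (0.0649).

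Among the genes described as repressed, 3 of 4 tested fell in HG-SIG against HG (background 26.8% lower), and 2 fell and 1 rose in HG against NC (background 29.5%). With library size alone or on log2(TPM + 1), 2 fell and 1 rose in HG-SIG against HG. Bcl6, a transcriptional repressor, fell by 1.68 ± 0.04 in HG-SIG against HG (adjusted p = 3.28e-11), with 19.5 ± 0.555 CPM in HG-SIG and 62.5 ± 2.39 CPM in HG. Lgals3, which encodes galectin-3, fell by 0.91 ± 0.06 in HG-SIG against HG (adjusted p = 1.45e-07), having been 0.25 ± 0.06 higher in HG against NC (adjusted p = 0.0093). Hif1a, which encodes a hypoxia-induced factor, fell by 0.24 ± 0.04 in HG-SIG against HG (adjusted p = 0.000274; 0.101 with library-size scaling and 0.529 on log2(TPM + 1)) and by 0.29 ± 0.04 in HG against NC (adjusted p = 0.000133). Whether a KLF bears on any gene of either list was not tested.

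**Figure D4:**
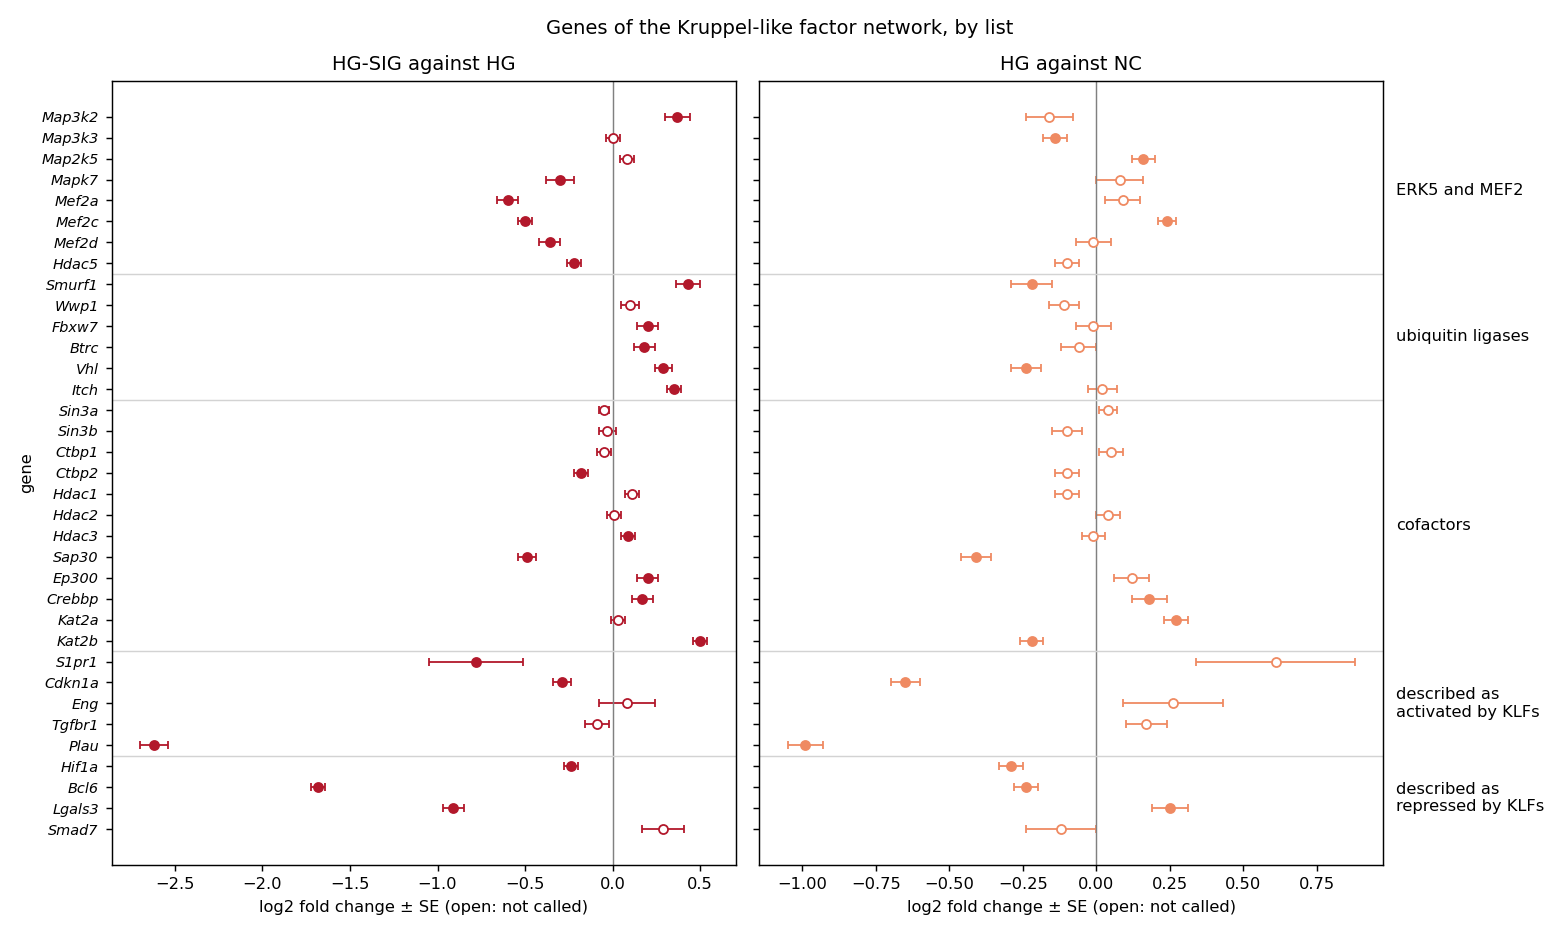
Log2 fold changes (± SE) of genes around the KLFs, grouped by list, in HG-SIG against HG (left) and HG against NC (right), on separate axes and filled where called. In HG-SIG against HG the MEF2 genes lie left of 0, the ubiquitin ligases right of 0, and Plau and Bcl6 farthest left.

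Of 7 TGF-β pathway genes, whose signal is known to induce Klf10 and Klf11, 1 rose and 2 fell in HG-SIG against HG (background 52.5%), and 2 rose and 1 fell in HG against NC (background 29.5%). With library size alone 3 rose and 1 fell in each comparison. Tgfbr2, the type II receptor gene, fell by 0.77 ± 0.04 in HG-SIG against HG (adjusted p = 5.06e-09) and rose by 0.38 ± 0.04 in HG against NC (adjusted p = 6.46e-06), with 107.2 ± 3.05 CPM in HG-SIG, 183.4 ± 5.86 CPM in HG and 140.6 ± 2.61 CPM in NC. Tgfb1, the ligand gene, fell by 0.67 ± 0.03 in HG against NC (adjusted p = 1.81e-08). Its fall in HG-SIG against HG, 0.16 ± 0.03 (adjusted p = 0.00173), had the opposite sign on log2(TPM + 1), at 0.04. Smad3 rose by 0.59 ± 0.07 in HG against NC (adjusted p = 3.89e-05) and by 0.21 ± 0.07 in HG-SIG against HG (adjusted p = 0.0174), the smaller change being lost without HG-SIG replicate 1 (adjusted p = 0.085) or HG replicate 2 (0.0612) and with DESeq2 (0.0529). Of 4 glucocorticoid-related genes tested beside Klf9, 2 rose in HG against NC (background 29.5%). In HG-SIG against HG, 1 rose and 1 fell (background 52.5%). Tsc22d3 rose by 0.57 ± 0.13 in HG against NC (adjusted p = 0.00557) and Per1 fell by 0.41 ± 0.06 in HG-SIG against HG (adjusted p = 5.47e-05). Nr3c1, the glucocorticoid receptor gene, rose by 0.18 ± 0.04 in HG against NC (adjusted p = 0.00922) and by 0.12 ± 0.04 in HG-SIG against HG (adjusted p = 0.0368). Fkbp5 gave 0.04 ± 0.04 in HG-SIG against HG and 0.00 ± 0.04 in HG against NC.

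The macrophage markers also fell in HG-SIG, where 7 of the 10 KLFs fell. All 7 markers were called lower in HG-SIG against HG (26.8% of all genes were), with a median log2 fold change of -0.72 against -0.56 for the KLFs, Lyz2 by 1.11 ± 0.05 (adjusted p = 2.16e-09) and Csf1r by 0.79 ± 0.03 (adjusted p = 2.08e-09). The smallest changes were lost on log2(TPM + 1), where Itgam gave -0.11 (adjusted p = 0.201) and Ptprc -0.11 (0.111). Gm49368, a gene on the same strand, overlaps 68.7% of the exonic length of Itgam. The antisense gene Hmgxb3 overlaps 15.1% of that of Csf1r. The effect of these overlaps on the counts was not tested. Between HG and NC, 4 fell and 1 rose (background 29.5%), with a median of -0.14, and on log2(TPM + 1) 2 fell and 1 rose. Spi1, which encodes the myeloid factor PU.1, fell by 0.72 ± 0.05 in HG-SIG against HG (adjusted p = 2.06e-07) and by 0.22 ± 0.05 in HG against NC (adjusted p = 0.00595). The part of these changes in the KLF results was not tested.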

How the data were processed

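Per the labels' protocols, RNA was extracted with Trizol, selected with oligo(dT) beads and copied with random hexamers. The deposited values are whole-number counts per gene and library; Bowtie2 2.3.5, RSEM and mm10 are named in the submitters' processing notes, whereas annotation release and strandedness were not given in the sources used here. Coordinates and exon lengths came from GENCODE M21 (GRCm38). Groups came from the sample titles.

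Counts were filtered with filterByExpr (13311 genes kept), and, after TMM scaling, tested in edgeR 4.0.16 (R 4.3.3) with 1 mean per group over all 9 libraries. CPM are TMM scaled. TPM used exon lengths, which 91% of tested genes had, and orders genes within a group. Alternatives were library-size scaling, the DESeq2 1.42.0 test, limma 3.58.1 (voom, and log2(TPM + 1)), other filters, fewer libraries and a replicate block. The series states limma on log2 TPM, and the added 1 was set here. Size factors of the DESeq2 type, called DESeq2 size factors below, were a further alternative and were computed in edgeR (its RLE method). The test code was checked on simulated counts.

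The 10 members and all gene lists were chosen with earlier results of these data known, as was the naming rule: every member, KLF and SP gene, up to 3 genes per list and comparison by lowest p, and the genes most correlated with each member. Other list genes named (Mapk7, Map3k2, Spi1, Sin3a, Sin3b, Ctbp1) and the statements on them were chosen after their values were seen. So were the HG-SIG against HG statements on Hdac5, Wwp1, Itgam, Ptprc and Fkbp5, which the rule names in other comparisons. Tgfbr1, Eng and Fbxw7 met the rule but are not described in the text. A floor of 3 counts corresponds to 0.0895 to 0.132 CPM and covers counting error only. A gene of the list described as repressed is not reported here, and that list is counted without it.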

Additional observations from a re-analysis of the deposited data

How the results depend on the processing

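Of 30 KLF fold changes (10 genes in 3 comparisons), 18 kept their direction and side of the threshold in all 19 alternatives, among them every call of Klf2, Klf3, Klf4, Klf6, Klf7, Klf10 and Klf11. The count of KLFs called was 5 to 6 in HG against NC, 8 to 9 in HG-SIG against HG and 6 to 7 in HG-SIG against NC when each library was left out in turn, and the counts over all genes were 3062 to 4000, 6193 to 7147 and 7106 to 8191. Deviations from the group mean correlated at -0.00 to 0.10 between same-numbered libraries of different groups. Between differently numbered libraries the correlations were -0.08 to 0.04. Whether the replicate numbers mark a weak pairing was not tested. With the replicate number as a block, 4663, 7563 and 8282 genes were called against 3927, 6989 and 7801 without it, and 6, 8 and 6 KLFs with and without it.

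Signs turned for KLF differences near 0. In HG against NC, Klf3 gave -0.01 without NC replicate 3 (range -0.01 to 0.19 with 1 library left out), Klf13 -0.01 without NC replicate 2, Klf9 -0.002, -0.0073 and -0.06 without HG replicates 1 and 2 and NC replicate 3, and Klf10 -0.0032 and -0.0029 with DESeq2 size factors and DESeq2, -0.0014 with a stricter filter, -0.0028 with 6 libraries, and -0.02, -0.02 and -0.03 without HG replicate 3, NC replicate 1 and NC replicate 2 (up to 0.06 without NC replicate 3). In HG-SIG against HG, Klf13 gave -0.01 without HG-SIG replicate 3, and Klf9 0.0066 with library-size scaling and 0.05 on log2(TPM + 1). In HG-SIG against NC under the latter pair of settings, Klf2 gave 0.13 and 0.18, Klf9 0.05 and 0.09 and Klf16 0.03 and 0.07; Klf2 also gave -0.16 to 0.13 with 1 library left out. Klf13 in HG-SIG against NC was called at 0.26 and 0.29 under that pair. Other genes also turned sign. In HG-SIG against HG, Sp1 gave 0.13, 0.17 and 0.02 (library size, log2(TPM + 1), without HG replicate 3, and -0.09 without HG replicate 1), Sp3 -0.0043, -0.0042, -0.00047, -0.03 and -0.0059 (DESeq2 size factors, DESeq2, without unannotated loci, without HG-SIG replicate 2, without HG replicate 2), and Ctbp2 and Tgfb1 0.02 and 0.04 on log2(TPM + 1). In HG against NC, Fkbp5 gave -0.00024 and -0.00033 with DESeq2 size factors and DESeq2, and -0.02 and -0.0036 without HG and NC replicate 3. The cause of these turns was not tested. Klf11 and Klf2 had the lowest counts of the KLFs (82 to 159 and 115 to 266 per library), and a change in the whole RNA pool cannot be told apart from the scaling.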
